A study of Mus musculus with 7 samples.

Results

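Wnt ligands are the secreted proteins that start Wnt signalling, and 10 of their genes were followed through the uterus of cycling mice. The 10 genes were taken by symbol from a table of 31274 rows: Wnt2, Wnt2b, Wnt4, Wnt5a, Wnt6, Wnt7a, Wnt7b, Wnt9a, Wnt11 and Wnt16. The table holds rows for 19 Wnt genes in all. RNA had been sequenced in bulk from the uteri of intact, unexposed CD-1 mice, an outbred stock, at 2 months of age. The diestrus group (CoD) held 4 libraries and the estrus group (CoE) held 3. The labels name no genetic change or added hormone in either group, and do not say whether a library came from 1 animal or a pool. P-values therefore measure the spread between libraries, which may be technical. Diestrus is the phase of the cycle under luteal progesterone, and estrus follows the peak of estradiol.

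A Wnt protein is made in the endoplasmic reticulum, where the acyltransferase Porcn attaches a lipid, and is carried to the cell surface by Wls. On a neighbouring cell it binds a Frizzled receptor. With the co-receptors Lrp5 and Lrp6 this stabilises beta-catenin, while with Ror2 and related proteins it acts on cell shape and polarity. In the mouse uterus Wnt7a, Wnt7b and Wnt11 are known as products of the epithelium, and Wnt2, Wnt4, Wnt5a and Wnt16 as products of the stroma. Wnt7a is known for patterning the female tract and for gland formation, and Wnt4 for decidualization, the change of stroma at implantation. Wnt2b, Wnt6 and Wnt9a were not assigned to a compartment. These assignments are background and were not measured in bulk tissue, where fewer cells of a type and less RNA per cell cannot be told apart.

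Values were FPKM, fragment numbers scaled for transcript length and library size, so levels of different genes are compared per length. The absolute depth was unknown. The spacing of low values put the relative depth of the libraries at 0.92 to 1.36 times that of estrus replicate 1. Spearman correlations were 0.916 to 0.974 within a group and 0.820 to 0.919 between groups. Scores on the first principal component ran from 47.0 to 59.9 for estrus, and were -11.3, -36.3, -48.0 and -61.9 for diestrus replicates 1 to 4, which put diestrus replicate 1 nearest to estrus. A positive difference means a higher level at estrus, in units of log2(FPKM + 1), where the added 1 shrinks the changes of genes near 0. The test was limma over the 13920 genes that reached 1 FPKM in 3 or more libraries, with a Benjamini-Hochberg adjusted p under 0.05 as the threshold. Annotated transcripts on the other strand overlap Wnt5a, Wnt6, Wnt7b and Wnt11, and it is not known whether counting used strand, so reads of such partners cannot be told apart.

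Wnt11, Wnt6 and Wnt2b fell at estrus, and no Wnt ligand rose. Of the 10 genes, 9 could be tested, 3 fell and 6 did not pass. Across all tested genes 14.0% fell, 17.2% rose and 31.1% changed in either direction (limma, adjusted p). The tested median difference over all genes was 0.05. Wnt11 and Wnt6 passed the filter on low values only through their diestrus libraries, so their share among tested genes supports nothing further. The count of 0 increases became 1 at an unadjusted limma p under 0.05 (Wnt5a) and was 0 by the exact permutation test. Without estrus replicate 2 only 1 ligand, Wnt11, fell.

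**Figure D1:**
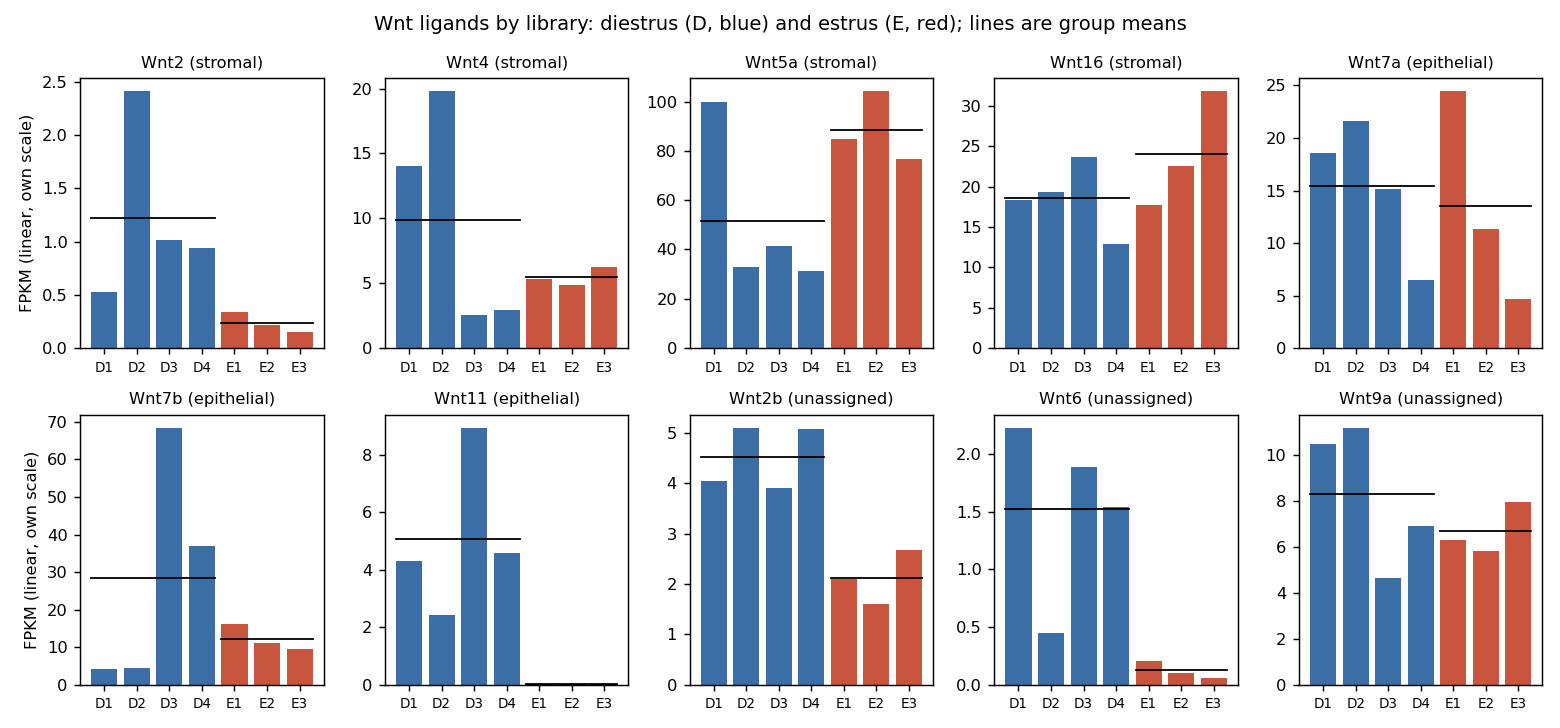
FPKM of each of the 10 Wnt ligands in the 4 diestrus (D, blue) and 3 estrus (E, red) libraries, each panel on its own linear scale from 0, with lines at the group means. Wnt11 stood at 2.44 to 8.93 in diestrus and at 0.02 to 0.04 in estrus, and Wnt4 and Wnt7b split the diestrus libraries in opposite ways.

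Wnt11, an epithelial ligand that acts mainly outside the beta-catenin route, showed the largest change of the 9 tested members. The gene lies on GRCm38 chromosome 7, 98835112 to 98855195, plus strand. It stood at 4.29, 2.44, 8.93 and 4.59 FPKM in diestrus replicates 1 to 4. In estrus replicates 1 to 3 it stood at 0.035, 0.036 and 0.019 FPKM. Every diestrus library lay far above every estrus library. Means were 5.07 ± 2.75 (SD, n = 4) and 0.030 ± 0.0091 (SD, n = 3), so the diestrus mean was 169.6 times the estrus mean. The log2 difference was -2.45 (SE 0.32, 95% interval -3.20 to -1.71, limma adjusted p = 0.0027). The exact permutation p over 35 splits was 0.0286, the smallest that this design can give. The estrus values were close to the bottom of the table: 3.28% to 8.07% of the rows above 0 in those libraries were lower, against 37.4% to 56.8% in diestrus. The ratio therefore rests on very low estrus values whose counting error is unknown. Leaving out any 1 library gave differences of -2.69 to -2.18 and adjusted p values of 0.0034 to 0.0191.

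The fall of Wnt11 went with a rise of epithelial genes. Of 15 epithelium markers 11 rose and none fell, with summed levels of 1104 to 1575 FPKM in diestrus and 3806 to 4248 in estrus. Measured against the mean log2 level of these markers, Wnt11 stood at -4.16 to -2.99 in diestrus and at -7.49 to -7.31 in estrus, with no overlap. Wnt11 was wholly lower and the marker mean wholly higher at estrus, so this lack of overlap was fixed in advance and supports nothing further. With Wnt11 near 0 at estrus, its values there follow the marker mean almost alone. They also depend on the added 1, and no other pseudocount was tried on this scale. The gland transcription factor Foxa2 fell from 9.61 ± 2.08 FPKM (SD, n = 4) to 4.09 ± 1.11 (SD, n = 3), with a limma adjusted p of 0.00994. Gland markers as a list summed to 107.8 to 17229 FPKM in diestrus and 16.2 to 88.1 in estrus, 2 of 5 tested members fell (4 without diestrus replicate 1, and 1 without diestrus replicate 3 or 4 or any estrus library) and none was listed at 0 in all libraries. The part of gland content in the Wnt11 difference was not tested.

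Wnt6, on chromosome 1 from 74771892 to 74785322, plus strand, was low throughout. Its diestrus values were 2.23, 0.45, 1.89 and 1.54 FPKM for replicates 1 to 4, and its estrus values 0.21, 0.11 and 0.063. Diestrus replicate 2 lay nearest to estrus, and the groups did not overlap. The difference was -1.11 (SE 0.27, limma adjusted p = 0.0218), and its size followed the pseudocount, at -2.71 with 0.1 and -0.34 with 5, both past the threshold. Adjusted p values were 0.0549, 0.0840 and 0.0577 without estrus replicates 1, 2 and 3, and Wnt6 fell below the filter without diestrus replicates 1, 3 or 4. Its exact permutation p was 0.0571. The neighbouring gene Wnt10a, 6.2 kb further on the same strand, was at 0.053, 0.018, 0.163 and 0.060 FPKM in diestrus and listed at 0 in the 3 estrus libraries.

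Sequences before the first start site are shown for the pair of ligands lowest at estrus, Wnt11 and Wnt6, and for Wnt16, whose level overlapped between the groups. They are the 250 bases upstream, 5′ to 3′ on the gene strand, from the RefSeq promoter table of GRCm38.p6: chr7:98834862-98835111 (plus) for Wnt11, chr1:74771642-74771891 (plus) for Wnt6 and chr6:22287977-22288226 (plus) for Wnt16. Capitals mark matches to any of 6 motifs searched on both strands.
Wnt11: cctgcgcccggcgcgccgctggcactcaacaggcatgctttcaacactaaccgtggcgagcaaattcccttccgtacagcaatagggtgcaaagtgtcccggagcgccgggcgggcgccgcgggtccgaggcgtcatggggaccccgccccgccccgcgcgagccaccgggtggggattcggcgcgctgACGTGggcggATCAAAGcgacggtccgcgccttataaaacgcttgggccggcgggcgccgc
Wnt6: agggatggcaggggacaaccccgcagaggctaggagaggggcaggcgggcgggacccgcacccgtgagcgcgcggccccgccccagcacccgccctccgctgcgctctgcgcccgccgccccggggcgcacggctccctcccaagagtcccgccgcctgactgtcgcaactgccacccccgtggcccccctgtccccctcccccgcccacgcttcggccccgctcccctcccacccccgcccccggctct
Wnt16: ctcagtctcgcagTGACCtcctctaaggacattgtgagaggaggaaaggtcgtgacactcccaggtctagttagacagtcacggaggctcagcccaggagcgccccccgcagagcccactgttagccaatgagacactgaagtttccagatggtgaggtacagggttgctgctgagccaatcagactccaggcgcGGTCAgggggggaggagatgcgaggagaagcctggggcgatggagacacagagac
The motifs were the estrogen receptor single site GGTCA, the full estrogen element (GGTCA, any 3 bases and the reverse complement TGACC), the full steroid element of the progesterone and glucocorticoid receptors (GNACA, any 3 bases and TGTNC), the single site AGAACA, the hypoxia element core ACGTG, and the Tcf and Lef site CTTTGAT. A full estrogen element contains the single site. Wnt11 held ACGTG 61 bases and the Tcf and Lef site 51 bases before the start, on the plus and minus strand. Wnt16 held the single site GGTCA at 237 bases (minus strand) and 55 bases (plus strand) before the start. Wnt6 held none of the 6. Among the windows not shown, Wnt9a, whose groups overlapped, held ACGTG at 228 bases (minus strand) and 227 bases (plus strand) before the start. It also held GGTCA at 108 bases (minus strand). The window of a second start of Wnt11 and those of Wnt2, Wnt2b, Wnt4 and Wnt7a held none of the 6. Of 32851 such windows in the table, 16.6% held ACGTG, 3.21% CTTTGAT, 35.2% GGTCA, 16.1% AGAACA, 0.387% the full steroid element and 0.0639% the full estrogen element. These are matches of letters only. RefSeq windows were found for 8 of the 10 genes, not for Wnt5a and Wnt7b, and base composition was 70.8% GC for Wnt11, 79.6% for Wnt6 and 59.2% for Wnt16 against a median of 52.4% over all windows.

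Wnt2b and Wnt2 are close relatives of one subfamily and were lower in every estrus library than in any diestrus library. Wnt2b (chromosome 3, 104945272 to 104961921, minus strand) stood at 4.04, 5.10, 3.90 and 5.07 FPKM across the 4 diestrus libraries and at 2.10, 1.60 and 2.67 across the 3 of estrus. Its diestrus libraries were the most even of the 10 genes, with a highest to lowest ratio of 1.31. The difference was -0.83 (SE 0.17, limma adjusted p = 0.0108), with an exact permutation p of 0.0286 and a limma adjusted p of 0.0576 without estrus replicate 2. It was -1.07 at a pseudocount of 0.1 and -0.42 at one of 5, both past the threshold.

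Wnt2 (chromosome 6, 17988940 to 18030585, minus strand) stood at 0.53, 2.41, 1.02 and 0.94 FPKM in diestrus and at 0.34, 0.21 and 0.15 in estrus. Only 2 libraries reached 1 FPKM, so it was left out of the limma fit. Its difference was -0.79 with an exact permutation p of 0.0571, and with no expression filter its limma adjusted p was 0.0751. Together 4 of the 10 ligands, Wnt2, Wnt2b, Wnt6 and Wnt11, had estrus values wholly below diestrus, and 0 wholly above. Over all tested genes 18.7% lay wholly below, 21.9% wholly above and 40.6% did not overlap in either direction. Wnt2 is not among those tested genes, and Wnt6 and Wnt11 are among them only through their diestrus libraries. The count of ligands and these shares are therefore of unlike sets, and the count supports nothing further. The change of Wnt2 against Wnt2b differed by 0.04, with an exact permutation p of 0.886 and an adjusted p of 0.943 over 3 pairs of ligands compared. This value depends on the pseudocount: with 0.1 in place of 1 it was -0.77 (exact permutation, adjusted p = 0.386), and the diestrus mean was 5.23 times the estrus mean for Wnt2 and 2.13 times for Wnt2b.

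Wnt5a, known as a stromal ligand acting through Ror2, had the highest mean of the 10 ligands in both groups, although Wnt7b was above it in diestrus replicates 3 and 4. The gene lies on chromosome 14, 28504750 to 28527448, plus strand. Diestrus replicates 2, 3 and 4 stood at 33.1, 41.6 and 31.2 FPKM, while diestrus replicate 1 stood at 99.95. The estrus libraries stood at 85.0, 104.2 and 76.6 FPKM. Diestrus replicate 1 thus lay among the estrus values and the rest of its group lay below them. The difference was 0.93 (SE 0.39, 95% interval 0.04 to 1.83) and did not pass (limma adjusted p = 0.0999, exact permutation p = 0.114). Without diestrus replicate 1 it was 1.30 with an adjusted p of 0.0030, and without any other library the adjusted p lay between 0.132 and 0.265. Diestrus replicate 1 is also the diestrus library nearest to estrus over all genes, as given above.

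Of 13 stroma markers none rose and 6 fell, with summed levels of 3381 to 6149 FPKM in diestrus and 4017 to 5294 in estrus. Against the mean log2 level of these markers Wnt5a stood at -2.86 to -0.76 in diestrus and -0.76 to -0.09 in estrus. Diestrus replicate 1, at -0.758, was just below the lowest estrus library, at -0.757. Wnt16, a stromal ligand at chromosome 6, 22288227 to 22298522, ranged from 12.8 to 23.8 FPKM in diestrus and from 17.8 to 31.8 in estrus, a difference of 0.35 (95% interval -0.22 to 0.92) that did not pass (limma adjusted p = 0.303) and was 0.13 without estrus replicate 3, 0.19 without diestrus replicate 4 and 0.54 without estrus replicate 1. Against the stroma markers it stood at -4.07 to -2.96 in diestrus and at -2.47 to -1.997 in estrus, without overlap. On that scale the group means of Wnt16 differed by 1.05, against 0.35 in its own level, and those of Wnt5a by 1.63 against 0.93. The rest is a lower marker mean at estrus. The markers did not move alike: 10 of the 13 had negative and 3 positive differences, from -2.06 for Hoxa10 to 0.82 for Col1a1. The separation of Wnt16 thus depends on the markers chosen. The other stromal ligands overlapped on this relative scale: Wnt2 differed by -0.09 and Wnt4 by 0.37 between the group means. Wnt2 lay wholly lower at estrus in FPKM, with a diestrus mean 5.23 times the estrus mean. Its estrus values were all below 1 FPKM, where the added 1 shrinks its change but hardly that of the markers. The relative value of Wnt2 therefore depends on the pseudocount, and no other pseudocount was tried on this scale.

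Wnt4 and Wnt7b divided the diestrus libraries. Wnt4 (chromosome 4, 137277489 to 137299726, plus strand) stood at 14.0 and 19.8 FPKM in diestrus replicates 1 and 2 but at 2.55 and 2.97 in replicates 3 and 4. The estrus libraries, at 5.33, 4.90 and 6.29 FPKM, lay between these. Wnt7b (chromosome 15, 85535437 to 85582473, minus strand) ran the other way, at 4.12 and 4.599 FPKM in diestrus replicates 1 and 2 and 68.4 and 37.1 in replicates 3 and 4. Its estrus values of 16.3, 11.03 and 9.61 FPKM also lay between. The highest diestrus library exceeded the lowest 7.76 times for Wnt4 and 16.6 times for Wnt7b, against 1.28 and 1.70 times within estrus.

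The ratio of Wnt7b to Wnt4 was 0.294, 0.232, 26.8 and 12.5 across diestrus replicates 1 to 4, against 3.06, 2.25 and 1.53 across estrus. This ratio was formed after the values were seen and was not tested. With such spread the estrus difference was -0.33 for Wnt4 (95% interval -1.80 to 1.14, limma adjusted p = 0.708) and -0.35 for Wnt7b (-2.51 to 1.81, adjusted p = 0.792), so these libraries set no direction for either. Wnt4 turned to 0.12 without diestrus replicate 2 and Wnt7b to 0.34 without diestrus replicate 3 and to 0.0513 without diestrus replicate 4.

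Other genes split the diestrus libraries in the same places, so the division is not particular to these ligands. Over all tested genes diestrus replicates 1 and 2 were nearest to each other (Spearman 0.944), and so were replicates 3 and 4 (0.970). The lowest value within diestrus was 0.916. The gland protease genes Prss28 and Prss29 stood at 6.62 and 29.5 FPKM in diestrus replicate 1, 61.1 and 155.5 in replicate 2, 3411 and 7952 in replicate 3 and 2180 and 6335 in replicate 4. Spink3, a trypsin inhibitor of the glands, stood at 16.2, 122.8, 5835 and 4900 FPKM in that order. Within diestrus, high values of these 3 gland genes thus fell on the libraries with high Wnt7b. The match did not extend to estrus. Wnt7b was higher in every estrus library than in diestrus replicates 1 and 2. Prss28 was lower there, at 5.38, 2.10 and 4.23 FPKM in estrus replicates 1 to 3. Prss29 and Spink3 in estrus lay below diestrus replicate 2 and on both sides of diestrus replicate 1. Foxa2 ran the other way within diestrus, at 12.2, 10.3, 8.53 and 7.41 FPKM. So did the gland chemokine Cxcl15, at 35.1, 8.15, 0.35 and 0.56 FPKM. Wif1, a secreted protein that binds Wnt ligands, stood at 2.81, 5.82, 0.016 and 0.052. The receptor Fzd10 stood at 10.8, 13.5, 3.17 and 2.84 FPKM, and Rnf43, a ligase that removes Frizzled from the surface, at 16.8, 15.9, 6.17 and 5.63. Wif1, Fzd10 and Rnf43 were named after their values were seen. Epithelium markers summed to 1369, 1152, 1575 and 1104 FPKM in the 4 diestrus libraries, so the divided pattern was not that of the sum. Single markers divided in both directions, among them Krt18 at 213, 162, 376 and 305 FPKM and Krt19 at 195, 152, 97.2 and 85.1. The labels give no stage within diestrus.

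**Figure D2:**
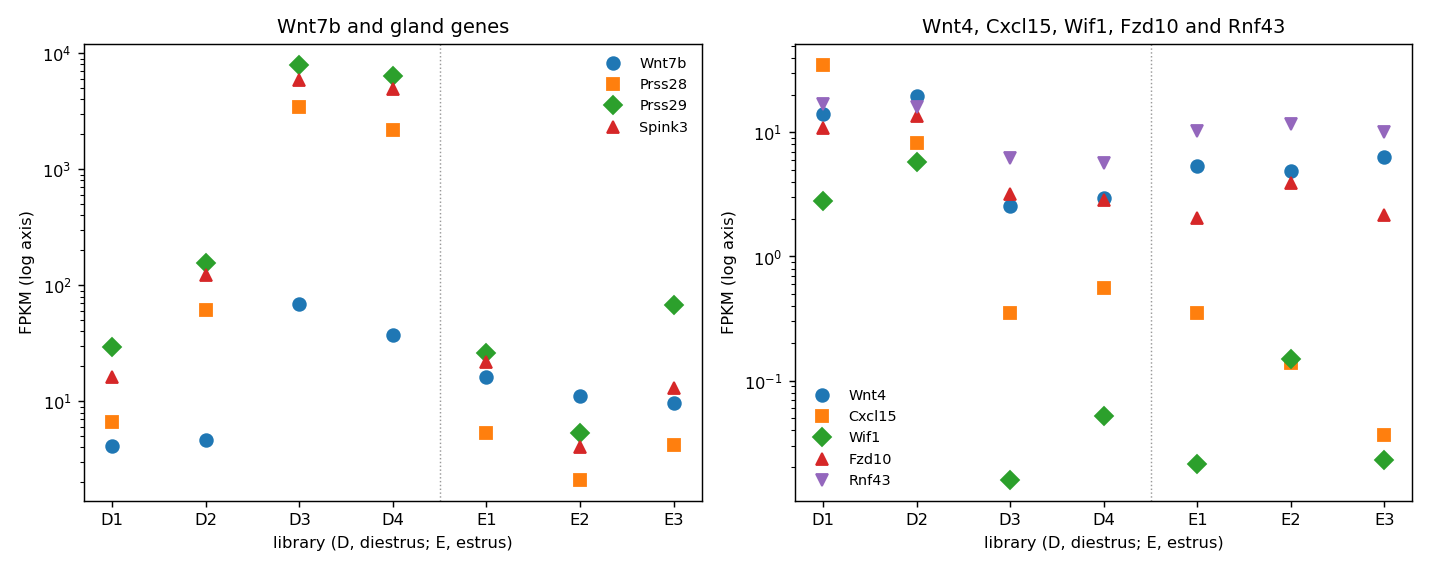
FPKM on a log axis in each library (D, diestrus; E, estrus), with Wnt7b and 3 gland genes on the left and Wnt4, Cxcl15, Wif1, Fzd10 and Rnf43 on the right. Diestrus replicates 3 and 4 had Wnt7b at 68.4 and 37.1 and Wnt4 at 2.55 and 2.97, while replicates 1 and 2 had Wnt7b at 4.12 and 4.599 and Wnt4 at 14.0 and 19.8.

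Wnt7a, the luminal ligand at chromosome 6, 91363981 to 91411363 (minus strand), varied in both groups. It stood at 18.6, 21.6, 15.2 and 6.45 FPKM across the diestrus libraries, and at 24.4, 11.3 and 4.70 in estrus replicates 1 to 3. The highest estrus library exceeded the lowest 5.20 times, the widest estrus range of the 10 ligands. The difference of -0.32 (95% interval -1.60 to 0.95, limma adjusted p = 0.669) did not pass and turned to 0.22 without estrus replicate 3. Against the risen epithelium markers Wnt7a stood at -2.767 to -1.44 in diestrus and at -4.82 to -2.769 in estrus, so the groups only just failed to meet. Wnt7b overlapped on that scale, at -3.83 to -0.19 in diestrus and -3.95 to -3.32 in estrus. The gap between Wnt7a and Wnt7b changed by 0.02 between the groups (exact permutation p = 0.943, adjusted p = 0.943). Within diestrus that gap ran from -2.35 to 2.01 on the log2 scale. The change of Wnt4 minus that of Wnt5a was -1.26 and did not pass (exact permutation p = 0.114, adjusted p = 0.343). It ranged from -1.62 without diestrus replicate 3 to -0.66 without diestrus replicate 2.

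Wnt9a (chromosome 11, 59306928 to 59333552, plus strand) was at 10.5, 11.2, 4.66 and 6.91 FPKM in diestrus and at 6.28, 5.83 and 7.94 in estrus. Its groups overlapped, and the difference of -0.22 (95% interval -0.86 to 0.42) did not pass (limma adjusted p = 0.560). It was -0.44 without diestrus replicate 3, -0.10 without diestrus replicate 1, -0.07 without diestrus replicate 2 and -0.14 without estrus replicate 2. As with Wnt4, diestrus replicates 1 and 2 were the high ones.

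**Figure D3:**
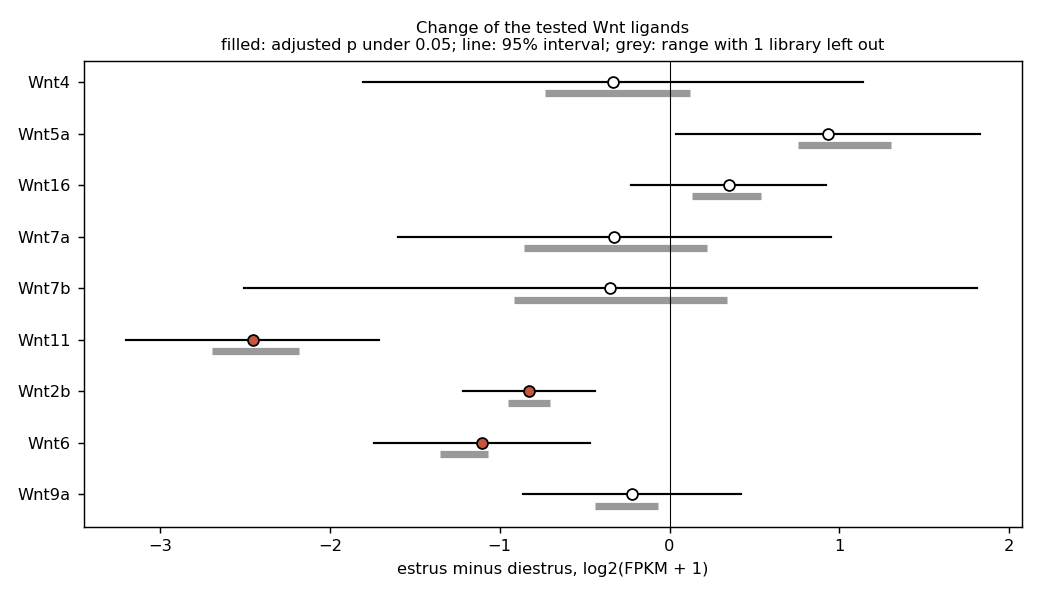
Difference between estrus and diestrus in log2(FPKM + 1) for the 9 tested ligands, with 95% intervals as lines, the range with 1 library left out as grey bars, and filled points where the limma adjusted p was under 0.05. Wnt11 at -2.45, Wnt6 at -1.11 and Wnt2b at -0.83 are filled, and the interval of Wnt7b reaches from -2.51 to 1.81.

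Ordered by mean FPKM, diestrus gave Wnt5a (51.4 ± 32.7), Wnt7b (28.5 ± 30.7), Wnt16 (18.6 ± 4.48), Wnt7a (15.5 ± 6.54), Wnt4 (9.83 ± 8.502), Wnt9a (8.30 ± 3.06), Wnt11 (5.07 ± 2.75), Wnt2b (4.53 ± 0.65), Wnt6 (1.53 ± 0.77) and Wnt2 (1.22 ± 0.82; SD, n = 4 for each). Among neighbours in that order only Wnt2b and Wnt6 had ranges that did not overlap. The estrus order was Wnt5a (88.6 ± 14.1), Wnt16 (24.1 ± 7.15), Wnt7a (13.5 ± 10.05), Wnt7b (12.3 ± 3.53), Wnt9a (6.68 ± 1.11), Wnt4 (5.50 ± 0.71), Wnt2b (2.12 ± 0.53), Wnt2 (0.23 ± 0.10), Wnt6 (0.13 ± 0.075) and Wnt11 (0.030 ± 0.0091; SD, n = 3 for each). There the ranges of 5 neighbouring pairs did not overlap: Wnt5a and Wnt16, Wnt7b and Wnt9a, Wnt4 and Wnt2b, Wnt2b and Wnt2, and Wnt6 and Wnt11.

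The summed FPKM of the 19 Wnt genes was 117.2 to 183.2 in diestrus and 142.6 to 164.9 in estrus, so the total overlapped while its makeup varied. The share of Wnt5a was 54.6%, 25.7%, 23.4% and 26.6% across diestrus replicates 1 to 4, against 53.1%, 63.2% and 53.7% at estrus. Wnt7b was the leading ligand in diestrus replicates 3 and 4, with 38.5% and 31.6%, and Wnt5a led in the other 5 libraries. The 3 epithelial ligands summed to 27.0, 28.6, 92.5 and 48.1 FPKM in diestrus and 40.8, 22.4 and 14.3 in estrus. The 4 stromal ligands summed to 132.9, 74.6, 68.9 and 47.9 FPKM in diestrus and 108.4, 131.9 and 114.9 in estrus. The epithelial sum was larger than the stromal sum in diestrus replicates 3 and 4 alone, by a small margin in replicate 4.

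**Figure D4:**
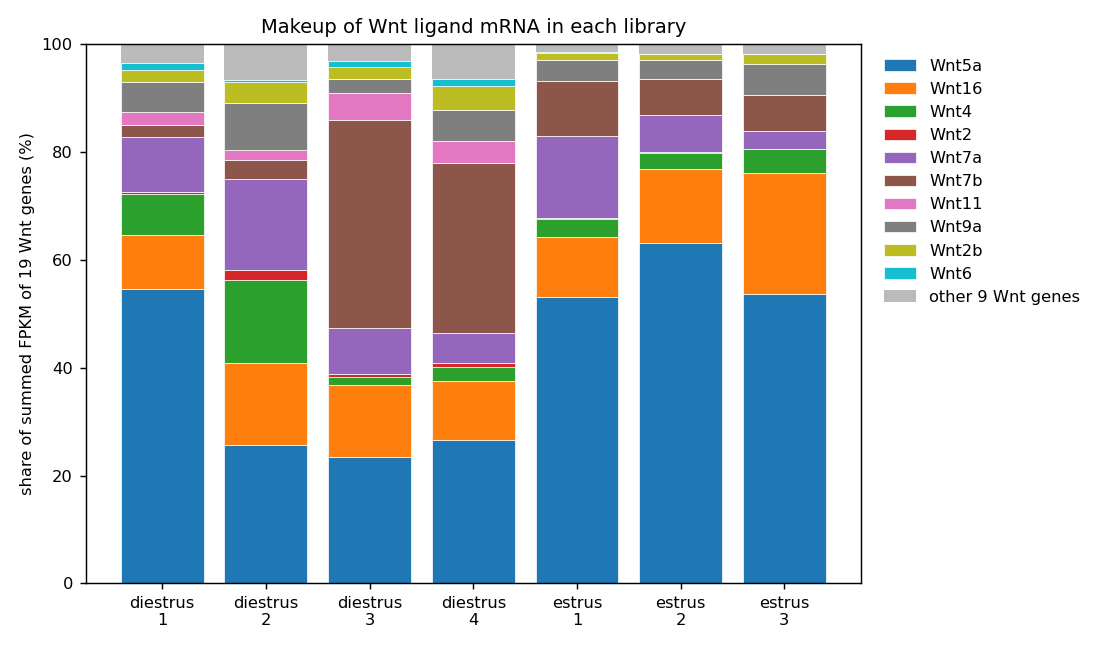
Share of each ligand in the summed FPKM of 19 Wnt genes, in percent, for each library. Wnt5a took 53.1% to 63.2% in estrus and 54.6% in diestrus replicate 1, and Wnt7b took 38.5% and 31.6% in diestrus replicates 3 and 4.

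Of the other 9 Wnt genes only Wnt5b, a close relative of Wnt5a, was tested. Its mean was 6.73 ± 1.199 FPKM in diestrus (SD, n = 4) and 2.51 ± 0.32 in estrus (SD, n = 3), and it fell, with a difference of -1.13 (limma adjusted p = 0.00355). Wnt3a and Wnt8a were listed at 0 in all 7 libraries. The genes most like Wnt5a over the 7 libraries, among 10092 genes averaging 5 FPKM or more, were Ppme1, Aco1 and Tmem167, with Pearson r of 0.987, 0.986 and 0.985. Wnt7b was taken as the epithelial ligand with the highest mean over the 7 libraries, which diestrus replicates 3 and 4 set, while Wnt7a was higher in diestrus replicates 1 and 2 and estrus replicates 1 and 2. The genes nearest to Wnt7b were Ddx52, Ppib and Eps8l2, at 0.989, 0.982 and 0.977. Ppib, an endoplasmic reticulum prolyl isomerase, stood at 355.3, 327.8, 555.5 and 494.6 FPKM in diestrus and 412.5, 411.6 and 381.5 in estrus. The libraries share their depth and cell makeup between genes, and these likenesses are descriptions.

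Of 10 tested genes that lipidate, carry, recycle or cut the ligand, 4 rose and none fell, with a median difference of 0.10. This and the counts below stand beside 31.1% called and a median of 0.05 over all tested genes. Porcn (log2 difference -0.28, limma adjusted p = 0.156) and Wls (0.02, adjusted p = 0.929) did not pass. Wls was at 108.4 to 148.7 FPKM in diestrus and 118.4 to 141.5 in estrus. Trabd2b, a surface protease that cuts Wnt proteins, rose by 1.72, and the cargo receptor genes Tmed5 and Tmed2 rose by 1.34 and by 0.59. Vps35, of the retromer that recycles Wls, rose by 0.61 (adjusted p = 0.0118). Without estrus replicate 2 only Trabd2b and Tmed5 passed, with adjusted p values of 0.0675 for Vps35 and 0.108 for Tmed2. Tmed2 also failed without diestrus replicate 4 and without estrus replicate 1, and both Vps35 and Tmed2 failed after quantile normalization. Of the 10 genes, 3 rose and 1 fell without diestrus replicate 4, and 5 rose and 3 fell with library weights. Notum, counted also among the beta-catenin genes below, averaged 2.99 ± 2.94 FPKM in diestrus and 0.32 ± 0.076 in estrus (SD). Its groups did not overlap, and its difference of -1.31 did not pass (limma adjusted p = 0.0832).

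Among the Frizzled receptors, 1 of 9 tested rose and 3 fell, with a median difference of -0.48. Fzd5 averaged 3.44 ± 0.54 FPKM in diestrus (SD, n = 4) and 7.20 ± 0.35 in estrus (SD, n = 3), a difference of 0.89 (limma adjusted p = 0.00475). Fzd1, Fzd2 and Fzd3 had differences of -0.82, -0.54 and -0.48 (adjusted p = 0.0425, 0.0320 and 0.0304). None of these 3 passed when diestrus replicate 2, diestrus replicate 4 or any estrus library was left out, and 1, Fzd2, passed without diestrus replicate 3. Fzd3 also failed after quantile normalization and Fzd1 with no expression filter. The largest mean in both groups was that of Fzd6, at 40.7 ± 7.39 FPKM in diestrus (SD, n = 4) and 40.3 ± 3.32 in estrus (SD, n = 3; limma adjusted p = 0.994). Fzd1 was above it in diestrus replicates 3 and 4, at 45.0 and 45.3 FPKM against 36.5 and 35.5. Of 10 tested co-receptors and binding partners 2 rose and 1 fell (2 without diestrus replicate 1), with a median of -0.17. Ror2, the receptor tyrosine kinase for Wnt5a, rose from a mean of 12.9 ± 1.83 to one of 25.1 ± 1.03 FPKM (difference 0.92, adjusted p = 0.0035). Lrp5 rose by 0.50 (adjusted p = 0.0182), which reached 0.0630 when single libraries were left out and was lost without diestrus replicate 4, estrus replicate 1 or estrus replicate 2, and also after quantile normalization. Gpc3, a glypican that binds Wnt and Frizzled, fell from 32.7 ± 10.04 to 7.39 ± 2.54 FPKM. Reck and Gpr124, which serve Wnt7a and Wnt7b as co-receptors, had differences of -0.26 and -0.15 (adjusted p = 0.305 and 0.558).

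In the polarity branch 3 of 11 tested genes rose and 4 fell, with a median of 0.10. The cadherins Celsr2 and Celsr1 rose by 1.81 and by 1.03, and Daam1, a formin, rose by 0.87, while its relative Daam2 fell by 1.46. Prickle1 and Prickle2 fell by 1.40 and by 1.00, and Dvl2 fell by 0.55 with an adjusted p of 0.0167 (limma) that became 0.0882 without estrus replicate 2. The list of 16 tested beta-catenin genes held Ctnnb1 itself, Tcf and Lef factors and Lgr receptors beside target genes, so it is not a measure of output alone. Of these, 3 rose (Ctnnb1, Lgr4 and Lgr6) and 9 fell. Lef1, Lgr5 and Sp5, which fell, and Notum, which did not pass, were below 1 FPKM in every estrus library. These genes passed the filter on low values only through their diestrus libraries. The count of falls is therefore not comparable with the share over all tested genes. The smallest p values were those of Lgr6, Nkd2 and Apcdd1, with differences of 2.45, -2.07 and -1.94. The differences of Lef1 and Lgr5, at -2.49 and -2.30, were larger than those of Nkd2 and Apcdd1. Without estrus replicate 2 these counts were 1 and 5. Of 9 tested secreted inhibitors and R-spondins 6 fell, or 4 without diestrus replicate 4, estrus replicate 1 or estrus replicate 2, and the smallest p values were those of Dkk3, Sfrp2 and Rspo3, with differences of -3.05, -2.39 and -2.15.

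**Figure D5:**
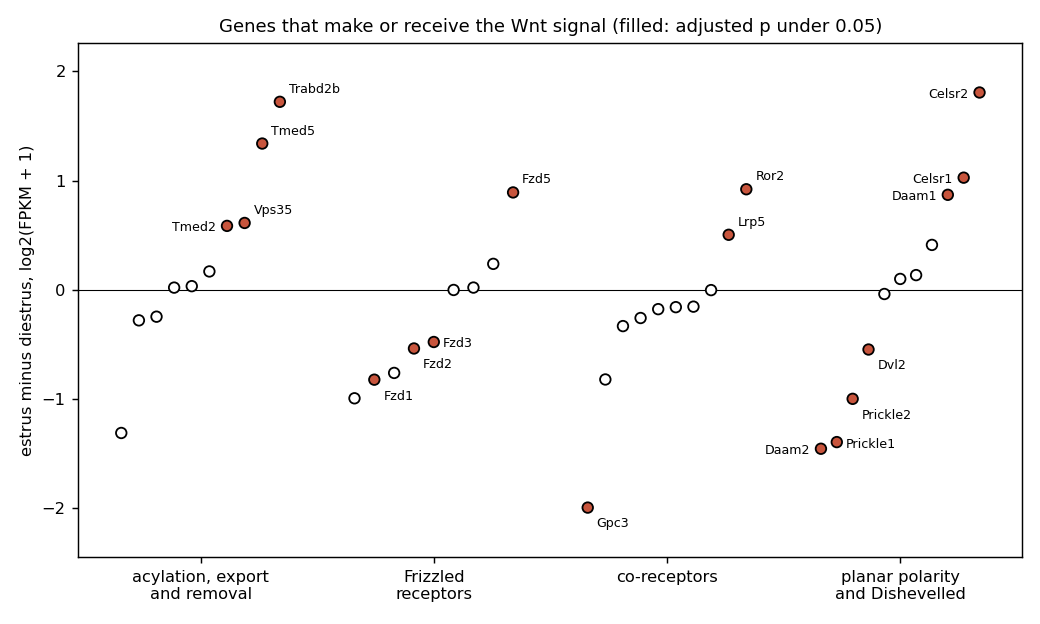
Difference between estrus and diestrus in log2(FPKM + 1) for tested genes of 4 groups of the pathway, 1 point per gene, filled and named where the limma adjusted p was under 0.05. Ror2 at 0.92 and Fzd5 at 0.89 lie above 0, Gpc3 at -1.995 far below, and the polarity genes lie on both sides.

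Other cell types were measured in the same libraries. Endothelium markers summed to 267.1 to 633.0 FPKM in diestrus and 155.7 to 196.5 in estrus, and all 9 fell, or 4 without estrus replicate 1 and 0 without estrus replicate 2. Smooth muscle markers overlapped, at 3135 to 7749 and 3329 to 5861 FPKM, with 1 of 10 higher and 1 lower, and with none passing when diestrus replicate 2 or 3 or estrus replicate 2 or 3 was left out. Mesothelium markers summed to 51.7 to 108.8 and 28.9 to 50.2 FPKM. None of these listed markers was at 0 in all libraries, and the part of cell makeup in the ligand differences was not tested.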

How the data were processed

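RNA sequencing of whole uterus was deposited as 1 FPKM value per gene and library. Libraries were made with the Illumina TruSeq RNA kit, per the labels' protocols. TopHat2 2.0.4 and the build mm10 (GRCm38) are named with no role, per the submitters' processing notes. The program and annotation behind the FPKM, and any use of strand, were not stated there. In GENCODE M21, genes on the other strand overlap Wnt5a, Wnt6, Wnt7b and Wnt11, and one on the same strand overlaps Wnt2b. Of these only AU022754, opposite Wnt7b, was matched to a row by symbol, at 0.035 to 0.41 FPKM.

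Columns were matched by the sample descriptions and grouped by title. Log2(FPKM + 1) values of 13920 genes were fitted with limma 3.58.1 in R 4.3.3, using an intensity trend and all 7 libraries. The fit was tested on simulated data. Single ligands and 3 ligand pairs were tested by two-sided exact permutation over 35 splits, whose smallest p is 0.0286. Alternatives varied the pseudocount, filter, scaling and moderation, weighted the libraries, blocked on the replicate number, or dropped 1 library at a time. Gene lists were taken from general knowledge. The members and lists were chosen with earlier results of these data known. Named genes are the members, up to 3 genes with the smallest p among those that passed in each list, and the 3 nearest patterns to the stromal and the epithelial ligand with the highest mean FPKM over all 7 libraries. Of the lists' other genes, those named beyond this were chosen after their values were seen. Replicate numbers are shared by 3 pairs, and the labels do not say that they mark a common animal or day. Marker genes of squamous epithelium and oviduct summed to 0.82 to 1.85 and 9.03 to 55.4 FPKM in diestrus and 2.21 to 16.6 and 2.85 to 6.90 in estrus. Leukocyte markers summed to 54.3 to 132.3 and 72.0 to 195.2 FPKM. Python 3.11.15 and matplotlib 3.10.9 drew the plots.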

Additional observations from a re-analysis of the deposited data

Results flagged for a closer look

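Wnt5a in diestrus replicate 1 stood at 99.95 FPKM, far from the other diestrus libraries, whose values were 31.2 to 41.6. Its gap to the nearest of them was 0.849 of the group's range in FPKM, above Dixon's critical value of 0.829 for 4 libraries. The flag depends on the use of FPKM, which is not the log2 scale of the limma and permutation tests. Chance flags about 1 in 20 groups if values are normally distributed, which was not checked, and 10 were examined.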

How the results depend on the processing

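The number of genes that changed was 4336, and became 9367 with library weights, whose estimation stopped before it converged, 2281 with the replicate block and 1433 to 5311 with 1 library left out, lowest without estrus replicate 2. The ligands that rose numbered 0, or 1 (Wnt5a) with library weights and 0 to 1 with 1 library left out. Those that fell numbered 3, or 0 when only genes averaging 5 FPKM or more were fitted, where Wnt2b, Wnt6 and Wnt11 were not tested, 1 with the replicate block (adjusted p = 0.0639 for Wnt2b and 0.0545 for Wnt6) and 1 to 3 with 1 library left out. Wnt11 kept its call in all 16 alternatives where it was tested, with differences of -5.17 (pseudocount 0.1) to -0.96 (pseudocount 5). In the replicate block diestrus replicate 4 stood alone and added nothing. Same-numbered libraries correlated in their deviations from the group means at 0.198, 0.024 and 0.169, and different-numbered ones at -0.326 to 0.267. Deviations within a group sum to 0, so these values cannot decide whether the numbers mark pairs. The numbers were not taken as pairs because the labels do not say so. Differences without a call changed sign: Wnt4 ranged from -0.73 to 0.12, Wnt7a from -0.86 to 0.22 and Wnt7b from -0.91 to 0.34 with 1 library left out, and Wnt7b was at 0.0513 with the replicate block. For Wnt7a against Wnt7b the change was -0.055 at a pseudocount of 0.1 and -0.72 to 0.74 with 1 library left out. For Wnt2 against Wnt2b it was -0.77 at a pseudocount of 0.1 and -0.0731 to 0.22 with 1 library left out. With 6 libraries the smallest exact p is 0.0667 or 0.1, so those pair tests could not pass. The cause of these shifts was not tested. FPKM gives no counts, so the counting error of the lowest values, Wnt11 and Wnt6 at estrus, is unknown.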
